A study of Mus musculus with 6 samples.

Results

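The genes described here encode the extracellular and membrane side of Wnt signalling: the Wnt ligands, the protein that carries them out of the cell, their Frizzled receptors and co-receptors, and the secreted proteins that block or boost them. They were chosen by gene symbol, as protein-coding genes named Wnt, Fzd, Sfrp, Dkk, Dkkl1, Lrp5, Lrp6, Ror, Rspo, Kremen, Wif1, Frzb, Ryk and Wls. Measured values were not part of that rule, but it was set with earlier results of these data known. The annotation held 52 such genes, and 38 of them were among the 22032 genes of the deposited table. The other 14 were Wnt2, Wnt3, Wnt3a, Wnt7a, Wnt8a, Wnt8b, Wnt9b, Fzd10, Sfrp5, Dkk1, Dkk4, Dkkl1, Rspo4 and Kremen2. They are not analysed here, and the smallest total of any gene in the table was 6 reads over all libraries.

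RNA from mDE6, an established mouse cell line, was sequenced in 3 libraries with a control short hairpin RNA (shControl) and in 3 whose hairpin targets Arl4c (shArl4c). Arl4c encodes a small GTPase related to the ARF proteins. All 6 libraries came from the same line, and each sample carried a hairpin. The labels give 1 Arl4c hairpin group, so less Arl4c and other effects of that hairpin cannot be told apart, and separate cultures are not stated for the samples within a group, so that p-values cover the spread between samples, which may be technical. Library numbers are those of the deposited table: shControl 1, 2 and 3, and for the other group shArl4c 2, 3 and 4. Levels are in CPM, read counts brought to the same library size, and a value with ± is the mean and SD of n = 3 libraries.

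Wnt proteins are lipid-modified signals that are escorted to the cell surface by Wls and bind Frizzled receptors together with Lrp5 or Lrp6, which stabilises beta-catenin, or with Ror and Ryk receptors, which act on cell polarity and calcium. SFRP proteins and Wif1 bind Wnts outside the cell, most Dickkopf proteins bind the LRP co-receptors and can do so with Kremen, and R-spondins keep Frizzled receptors at the surface by way of the Lgr receptors. In the developing tooth, Wnts and their inhibitors are exchanged between the epithelium and the mesenchyme.

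The libraries held 12316770 to 14976113 reads, so that 1 read was worth 0.0672 to 0.0827 CPM. Arl4c itself fell from 20.6 ± 0.480 CPM with the control hairpin to 7.02 ± 0.353 CPM with its own hairpin, 2.94-fold lower (limma, log2 difference -1.43, SE 0.09, adjusted p = 2.08e-10). Within the shArl4c group, shArl4c 3 stood apart: its counts gave a chi-square, divided by the degrees of freedom, of 5.74 when set beside shArl4c 2 and 4.87 beside shArl4c 4. It was 1.54 between those libraries, 1.78 to 2.30 within shControl and 28.1 to 32.7 between the groups. mDE6 has been described as a dental epithelial line, while the labels give no tissue. Of 12 epithelial markers, 10 were in the table and 3 reached a mean of 1 CPM, Epcam and Esrp1 were not in it, and Cdh1 stood at 0.321 ± 0.0223 CPM in shControl and at 0 in every shArl4c library, where the limit of 3 reads is 0.218 to 0.230 CPM. The summed epithelial markers ran from 20.2 to 22.7 CPM in shControl and 15.9 to 18.8 CPM in shArl4c. Of 12 mesenchymal markers, 11 reached 1 CPM, and their sum ran from 41409 to 42904 CPM in shControl and from 25329 to 25988 CPM in shArl4c, with 7 lower and 2 higher by the test used below. The leukocyte list (5 of 6 markers in the table) summed to 6.87 to 8.05 CPM and 9.29 to 10.6 CPM, and the endothelial list (3 of 5) to 1.48 to 2.07 CPM and 1.07 to 1.74 CPM. The part of these differences in the results below was not tested, and in bulk RNA fewer cells of a type and less RNA per cell cannot be told apart.

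Most of the tested genes were lower with the Arl4c hairpin. Of the 38 genes, 28 averaged at least 1 CPM over the 6 libraries and entered the test, and 21 of the 28 (75.0%) changed, against 36.9% of all 14740 tested genes. A gene is called changed at an adjusted p under 0.05 by limma, on log2(CPM + 1) and adjusted over all tested genes. Of the 21, 16 were lower in shArl4c, where 18.0% of all tested genes were lower, and 5 were higher, where 18.9% were higher. The groups did not overlap for 24 of the 28, against 46.8% of all tested genes. By the ratio of mean CPM, 7 of the 28 were at least 2-fold lower (3.45% of all tested genes) and 2 were at least 2-fold higher (1.98%). The median log2 difference was -0.26 over the 28 and 0.01 over all tested genes. These genes were more abundant than most, with a median level of 56.5 CPM against 23.7 CPM over all tested genes, and the level of a gene sets how small a difference the test can call. Without shArl4c 3, the limit of 1 CPM was applied again to the libraries left, and 5 genes were higher and 19 were lower. Those 19 include Dkk2 and Rspo3, which are outside the 28 and entered the test in that setting. Of all 14685 genes tested without shArl4c 3, 3488 were higher and 3137 were lower. The 7 lower were Sfrp2, Ror1, Dkk3, Rspo2, Wif1, Wnt9a and Sfrp1 and the 2 higher were Wnt6 and Wnt10a, so that 5 of the 7 were secreted inhibitors or an R-spondin.

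**Figure D1:**
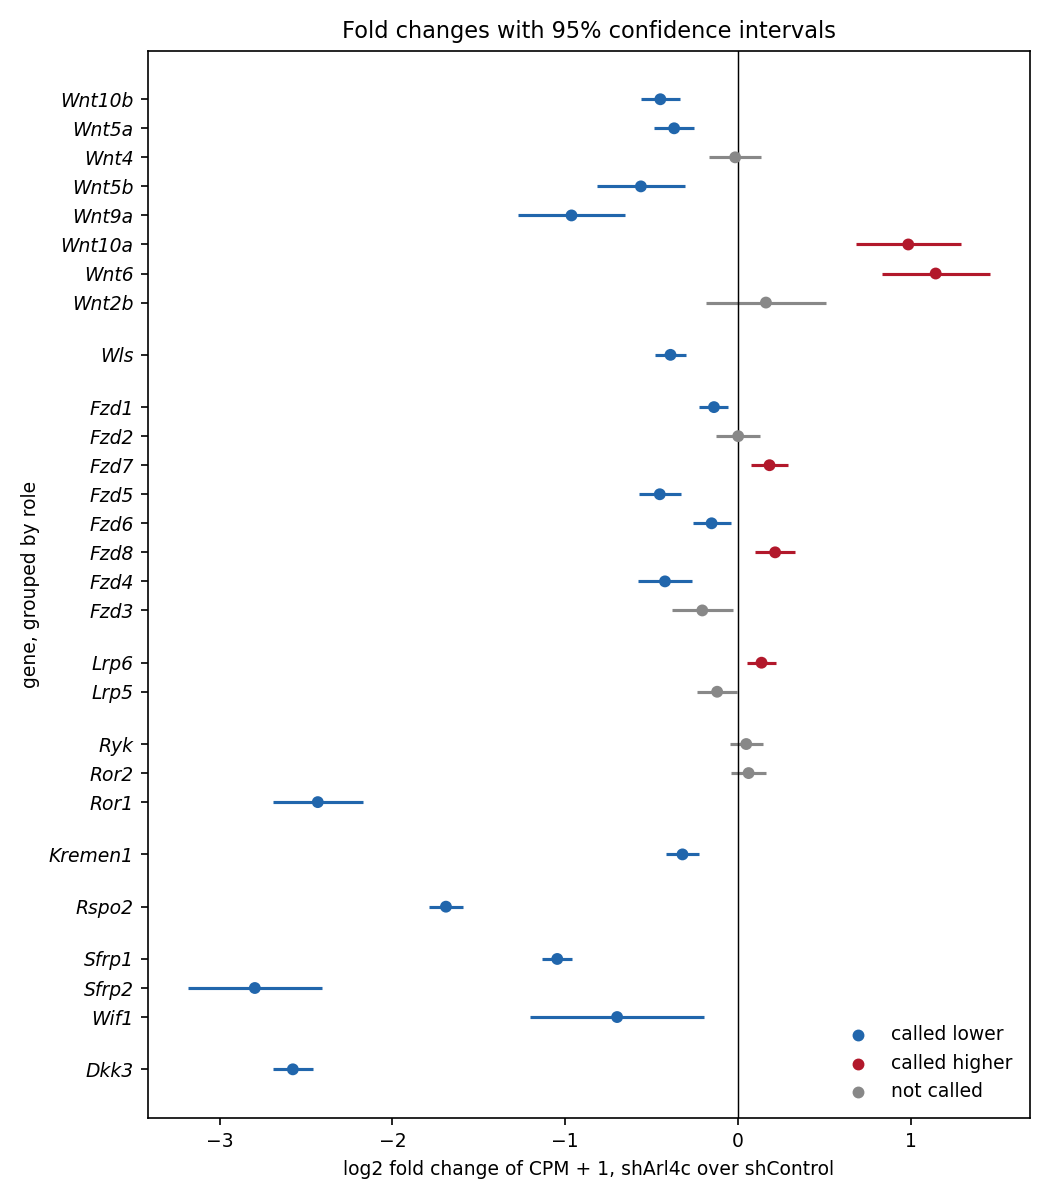
Log2 difference of shArl4c from shControl on the log2(CPM + 1) scale, with 95% confidence intervals from limma, for the 28 tested genes grouped by role. The 4 tested secreted inhibitors and Rspo2 lie below 0, and Wnt6 and Wnt10a lie furthest above it.

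Promoter sequences are shown for the genes with at least a 2-fold difference that had an entry in the RefSeq promoter table, and for Dkk2, so that the members that moved most can be read side by side. The table had entries for 35 of the 52 genes that were used here. It had none for Dkk3, Rspo2, Sfrp1 or Wnt10a. Each sequence is the 250 bases before the gene's start, 5′ to 3′ along the gene, from build GRCm38.p6, with the GC box GGGCGG (on either strand, so also written as CCGCCC) and the TATA motif TATAAA (also on either strand, TTTATA) in capitals.
Sfrp2, chr3:83766071-83766320, + strand: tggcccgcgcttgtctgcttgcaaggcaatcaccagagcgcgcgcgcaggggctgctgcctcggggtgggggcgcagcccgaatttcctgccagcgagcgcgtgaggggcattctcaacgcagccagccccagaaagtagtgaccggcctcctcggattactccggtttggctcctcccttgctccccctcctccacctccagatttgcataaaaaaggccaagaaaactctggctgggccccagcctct
Ror1, chr4:100095541-100095790, + strand: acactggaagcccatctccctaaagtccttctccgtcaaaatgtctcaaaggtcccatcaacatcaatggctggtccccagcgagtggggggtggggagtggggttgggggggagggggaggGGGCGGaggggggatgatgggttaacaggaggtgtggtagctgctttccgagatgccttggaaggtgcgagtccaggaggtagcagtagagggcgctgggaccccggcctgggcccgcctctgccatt
Wnt9a, chr11:59306680-59306929, + strand: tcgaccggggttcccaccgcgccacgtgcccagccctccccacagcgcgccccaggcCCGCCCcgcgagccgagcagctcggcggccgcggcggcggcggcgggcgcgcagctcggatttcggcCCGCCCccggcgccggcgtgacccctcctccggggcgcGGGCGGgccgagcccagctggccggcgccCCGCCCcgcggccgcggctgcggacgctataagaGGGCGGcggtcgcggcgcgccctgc
Wif1, chr10:121033754-121034003, + strand: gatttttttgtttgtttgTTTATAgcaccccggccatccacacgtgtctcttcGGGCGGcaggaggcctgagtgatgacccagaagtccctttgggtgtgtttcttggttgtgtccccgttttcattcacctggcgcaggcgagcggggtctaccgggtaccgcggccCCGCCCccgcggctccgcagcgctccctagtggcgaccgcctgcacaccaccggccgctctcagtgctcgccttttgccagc
Dkk2, chr3:132085042-132085291, + strand: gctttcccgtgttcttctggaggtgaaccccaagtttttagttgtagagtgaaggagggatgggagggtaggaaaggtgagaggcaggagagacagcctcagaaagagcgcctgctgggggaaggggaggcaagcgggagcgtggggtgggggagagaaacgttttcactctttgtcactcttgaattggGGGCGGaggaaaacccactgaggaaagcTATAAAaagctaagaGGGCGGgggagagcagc
Wnt6, chr1:74771642-74771891, + strand: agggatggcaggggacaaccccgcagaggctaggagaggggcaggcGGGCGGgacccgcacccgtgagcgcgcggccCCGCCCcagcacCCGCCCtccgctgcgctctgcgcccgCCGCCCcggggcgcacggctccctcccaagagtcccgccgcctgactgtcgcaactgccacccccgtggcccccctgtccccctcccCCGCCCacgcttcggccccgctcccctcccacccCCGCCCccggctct
Matches are of letters only, in windows of 300 bases that run from 250 before to 50 after the start. The window of Sfrp2 held no GC box or TATA motif, that of Ror1 1 GC box, that of Wnt9a 5 GC boxes, and that of Wif1 2 GC boxes and, on the opposite strand, 1 TATA motif. Dkk2 held 2 GC boxes and 1 TATA motif, whose first base lay 32 bases before the start, and Wnt6 held 6 GC boxes. TCF/LEF factors act on genes together with beta-catenin. Their motif was searched on both strands as CTTTGAA and in the variant forms CTTTGAT or, with another base before the last, CTTTGTA or alternatively CTTTGTT, and these letters were in none of the 6 windows. Over the genes' 38 windows, 5 (13.2%) held such a motif, against 16.9% of all 32851 windows. GC boxes stood in 29 of the 38 windows (76.3%), against 35.7% of all windows, and the TATA motif in 6 (15.8%), against 13.6%. The 38 windows had a median GC content of 66.8%, against 52.7% over all windows.

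Ligands fell or rose gene by gene. Of the 12 Wnt genes in the table, 8 were tested: 2 rose, 4 fell and 2 did not pass the test, where 18.9% of all tested genes rose and 18.0% fell. The sum of the 12 per kilobase of exon, a measure that lets genes of different length be compared, was 40.7 ± 0.932 CPM per kb in shControl and 34.7 ± 1.80 CPM per kb in shArl4c. Exon lengths join all isoforms of a gene, which understates the level of genes with many isoforms.

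Wnt10b, a ligand that promotes osteoblast formation by way of beta-catenin, held the largest share of the ligand sum. Its level was 60.9, 63.4 and 61.4 CPM in the shControl libraries and 42.7, 46.2 and 46.5 CPM in shArl4c. Every shArl4c library was below every shControl library, and the log2 difference was -0.45 (SE 0.05, limma, adjusted p = 1.76e-06). Its share of the ligand sum per kb was 44.8 ± 1.35% in shControl and 38.2 ± 1.51% in shArl4c.

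Wnt5a, a ligand of the polarity branch, stood at 59.3, 59.8 and 66.0 CPM in the shControl libraries and 47.5, 49.0 and 46.1 CPM in shArl4c. The groups did not overlap, and its log2 difference was -0.37 (SE 0.06, limma, adjusted p = 3.05e-05). Wnt5b, its closest relative, also fell without overlap: 9.74, 8.07 and 9.52 CPM against 5.52, 5.32 and 6.73 CPM, with a log2 difference of -0.56 (SE 0.12, limma, adjusted p = 0.00116). Wnt4 and Wnt2b did not pass the test, and their groups overlapped. Wnt4 stood at 27.5, 28.5 and 29.0 CPM in the shControl libraries and 27.9, 25.6 and 30.8 CPM in shArl4c, with a log2 difference of -0.02 (95% interval -0.17 to 0.14). Wnt2b ran from 1.24 to 1.70 CPM and from 1.61 to 2.03 CPM, with a log2 difference of 0.16 and a wide interval of -0.18 to 0.51. Wnt9a, a ligand of joint formation and bone growth, had the largest fall among the tested ligands. It stood at 5.09, 5.51 and 6.04 CPM in the shControl libraries and 1.96, 2.32 and 2.83 CPM in shArl4c, 2.34-fold lower (limma, log2 difference -0.96, SE 0.15, adjusted p = 3.02e-05).

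Wnt6 and Wnt10a moved the other way. Wnt10a, in which human variants cause missing teeth, stood at 2.07, 2.42 and 2.65 CPM in the shControl libraries and 5.81, 4.95 and 6.35 CPM in shArl4c, 2.40-fold higher. Wnt6, an epithelial Wnt, stood at 1.99, 2.02 and 2.23 CPM in the shControl libraries and 4.94, 5.62 and 7.04 CPM in shArl4c, 2.82-fold higher. The groups were separate for both genes, with log2 differences of 1.15 for Wnt6 (SE 0.15, limma, adjusted p = 4.79e-06) and 0.99 for Wnt10a (SE 0.14, limma, adjusted p = 1.99e-05). Wnt6 made up 2.33 ± 0.0979% of the ligand sum in shControl and 7.68 ± 1.0% in shArl4c, and Wnt10a 2.37 ± 0.240% and 6.65 ± 0.651%. Both shares remained below those of Wnt10b, Wnt5a and Wnt4.

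Per kilobase, the order in shControl was Wnt10b (18.2 ± 0.392 CPM per kb), Wnt5a (7.89 ± 0.478), Wnt4 (6.76 ± 0.183) and Wnt5b (3.43 ± 0.342). Wnt9a followed at 1.67 ± 0.143, then Wnt10a at 0.964 ± 0.119 and Wnt6 at 0.95 ± 0.0605, and those last values did not differ beyond their spread. In shArl4c, Wnt4 (6.70 ± 0.623) and Wnt5a (6.07 ± 0.189) did not differ beyond their spread, nor did Wnt6 (2.68 ± 0.490), Wnt10a (2.31 ± 0.287) and Wnt5b (2.21 ± 0.288), and Wnt9a lay below them at 0.712 ± 0.131. The other 4 Wnt genes, Wnt1, Wnt7b, Wnt11 and Wnt16, were below the 1 CPM filter. The highest was Wnt11, at 48 reads over the shControl libraries and 28 over the shArl4c libraries, a ratio of 0.588 (95% interval 0.355 to 0.956 from exact counting error alone). The other 3 had 5 to 13 reads per group.

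Wls, the carrier that Wnt secretion depends on, fell too. Its level was 233, 227 and 248 CPM in the shControl libraries and 177, 185 and 177 CPM in shArl4c (limma, log2 difference -0.39, SE 0.04, adjusted p = 6.66e-07). Every shArl4c library was below every shControl library.

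**Figure D2:**
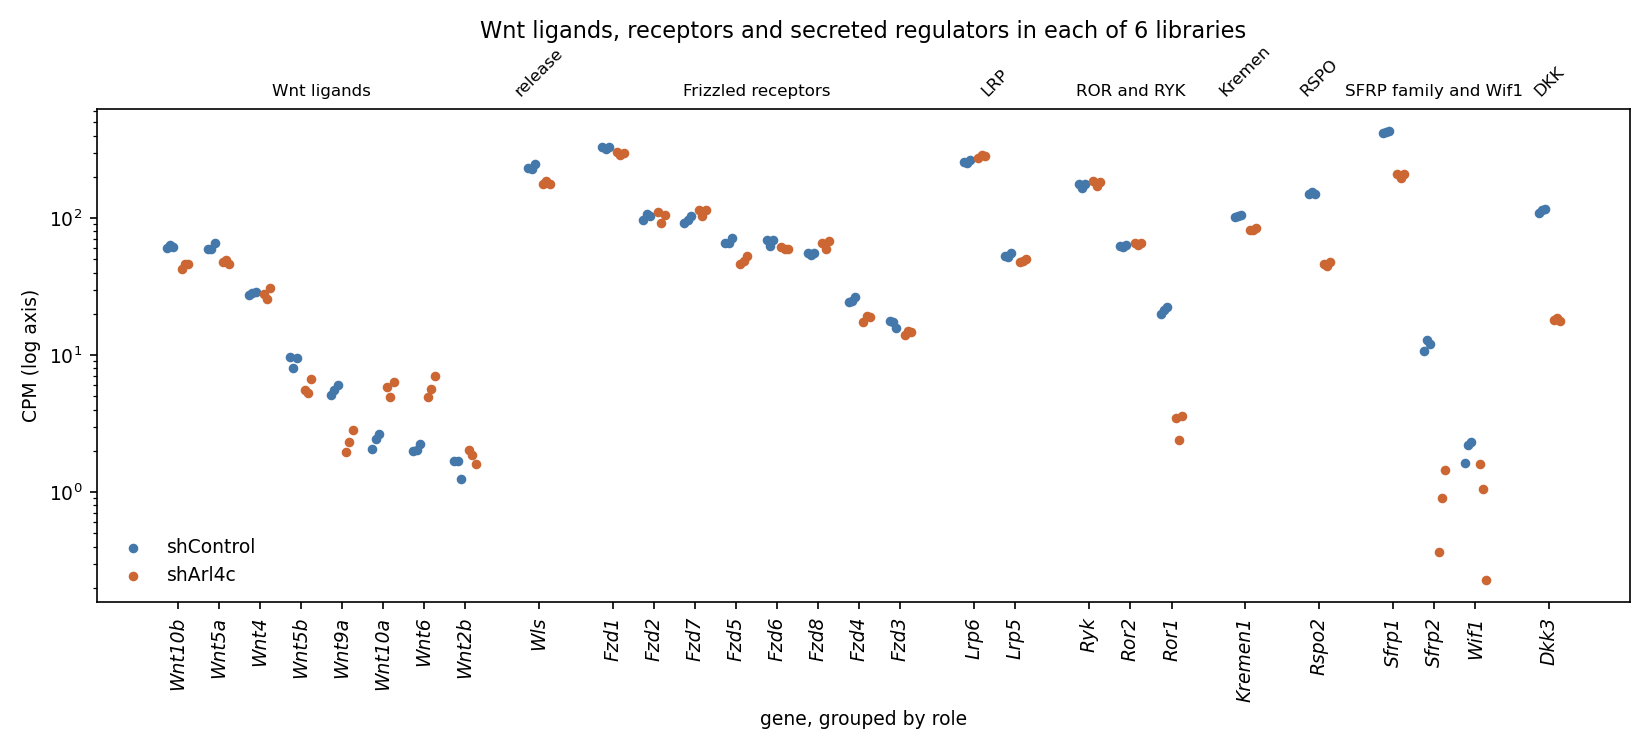
Level in CPM (log axis) of each of the 28 tested genes in each of the 6 libraries, grouped by role, with 1 point for each library. Sfrp2, Ror1, Dkk3 and Rspo2 show the widest gaps between the groups, and the points of Fzd2, Ryk, Wnt4 and Wnt2b overlap.

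Differences of the Frizzled receptors were small. Of the 9 in the table, 8 were tested: 2 rose (18.9% of all tested genes), 4 fell (18.0%) and 2 did not pass, and none of the 8 differed by 1.5-fold. The summed level was 166 ± 2.87 CPM per kb in shControl and 158 ± 6.50 CPM per kb in shArl4c. Fzd1 made up 46.9 ± 0.765% of that sum in shControl and 44.8 ± 0.555% in shArl4c.

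The clearest falls were those of Fzd5 and Fzd4. Fzd5, a receptor known from gut and eye development, stood at 65.8, 66.2 and 71.1 CPM in the shControl libraries and 46.2, 48.6 and 53.0 CPM in shArl4c (limma, log2 difference -0.45, SE 0.06, adjusted p = 4.05e-06). Fzd4, the receptor known for vessel growth in the retina, stood at 24.4, 24.9 and 26.5 CPM against 17.6, 19.3 and 18.9 CPM (limma, log2 difference -0.42, SE 0.07, adjusted p = 0.000129). The groups were separate for both. Fzd1 and Fzd6 fell by less, with log2 differences of -0.14 (SE 0.04, limma, adjusted p = 0.0101) and -0.15 (SE 0.05, limma, adjusted p = 0.0290). Fzd1 stood at 328, 321 and 328 CPM in the shControl libraries and 304, 286 and 299 CPM in shArl4c, and Fzd6, a receptor of the polarity branch, at 69.6, 62.8 and 69.1 CPM and 61.3, 59.9 and 59.6 CPM. The groups were separate for both, but Fzd6 lost the call without shControl 1, shControl 3 or shArl4c 4 (limma, adjusted p = 0.141, 0.120 and 0.0892, range over all alternatives 0.0103 to 0.141). Fzd6 also lost it with DESeq2 (adjusted p = 0.0948), with scaling by library totals and with limma without trend and robust moderation. Fzd1 lost it without shControl 1 (limma, adjusted p = 0.0549, range 0.00224 to 0.0743) and with limma without trend and robust moderation.

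The rises were as small. Fzd7 stood at 92.7, 97.1 and 103 CPM in the shControl libraries and 115, 104 and 114 CPM in shArl4c (limma, log2 difference 0.18, SE 0.05, adjusted p = 0.00868), and it lost the call without shControl 1 (limma, adjusted p = 0.0739, range over all alternatives 2.32e-05 to 0.0838). Fzd7 also lost the call with limma without trend and robust moderation. Fzd8 stood at 55.5, 54.1 and 56.0 CPM in the shControl libraries and 65.7, 59.9 and 67.5 CPM in shArl4c (limma, log2 difference 0.22, SE 0.05, adjusted p = 0.00396). Neither gene's groups overlapped, although the highest shControl and lowest shArl4c values of Fzd7 nearly met. Fzd2 did not pass, with overlapping groups of 97.4, 107 and 104 CPM and 110, 92.7 and 106 CPM (log2 difference 0.00, 95% interval -0.13 to 0.13). Fzd3, a guidance receptor of axons, was at 17.7, 17.5 and 15.6 CPM against 13.9, 14.9 and 14.8 CPM, and also missed the threshold (limma, log2 difference -0.21, SE 0.08, adjusted p = 0.0622). Its groups did not overlap, and it passed without shArl4c 3 (limma, adjusted p = 0.0375) and without shControl 3 (limma, adjusted p = 0.0429, range over all alternatives 0.0224 to 0.208). Fzd9 was below the filter, with 41 reads in shControl and 25 in shArl4c.

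Of the co-receptors, Lrp6, the more abundant per kilobase (18.8 ± 0.437 against 5.48 ± 0.241 CPM per kb for Lrp5 in shControl), rose slightly, from 257, 251 and 263 CPM in shControl to 276, 290.0 and 283 CPM in shArl4c. Its groups did not overlap, and the log2 difference was 0.14 (SE 0.04, limma, adjusted p = 0.0114), a call lost without shControl 1 (limma, adjusted p = 0.0506) or shControl 2 (limma, adjusted p = 0.0773, range over all alternatives 0.00132 to 0.0773). The call of Lrp6 was also lost with limma without trend and robust moderation. Lrp5, a co-receptor in which human variants alter bone mass, stood at 52.5, 51.6 and 56.0 CPM and 47.8, 48.8 and 50.3 CPM and did not pass (limma, log2 difference -0.12, SE 0.05, adjusted p = 0.0947).

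Ror1 was the receptor that moved most. This receptor tyrosine kinase of the polarity branch, which binds Wnt5a, stood at 19.9, 21.3 and 22.6 CPM in the shControl libraries and 3.48, 2.40 and 3.60 CPM in shArl4c. The groups were far apart, 6.73-fold by mean CPM (limma, log2 difference -2.43, SE 0.12, adjusted p = 9.18e-12). Its relative Ror2 did not pass the test. It stood at 62.1, 61.2 and 63.3 CPM in the shControl libraries and 66.1, 63.6 and 65.3 CPM in shArl4c, with a log2 difference of 0.06 (95% interval -0.04 to 0.16, limma, adjusted p = 0.354). Per kilobase, Ror2 already stood above Ror1 in shControl, at 14.7 ± 0.249 against 3.69 ± 0.231 CPM per kb, and the values in shArl4c were 15.3 ± 0.302 and 0.548 ± 0.115. Ryk, a receptor with an inactive kinase domain, overlapped between groups, at 177, 167 and 178 CPM and 186, 171 and 184 CPM (log2 difference 0.05, 95% interval -0.05 to 0.14).

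Kremen1, a transmembrane receptor for Dickkopf proteins, fell by a modest amount. Its level was 102, 103 and 106 CPM in the shControl libraries and 81.2, 82.1 and 84.4 CPM in shArl4c (limma, log2 difference -0.32, SE 0.04, adjusted p = 9.84e-06). All 3 shArl4c libraries were below all shControl libraries.

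The R-spondin that was tested, Rspo2, fell. This secreted protein that sustains Wnt receptors at the cell surface stood at 151, 155 and 149 CPM in the shControl libraries and 46.3, 44.9 and 47.4 CPM in shArl4c, 3.28-fold lower (limma, log2 difference -1.69, SE 0.05, adjusted p = 1.03e-15). It made up 97.2 ± 0.303% of the R-spondin sum per kb in shControl and 94.7 ± 1.58% in shArl4c, and the sum was 30.5 ± 0.618 CPM per kb in shControl and 9.55 ± 0.118 CPM per kb in shArl4c. Rspo3 was below the filter, with 20, 22 and 14 reads in shControl and 8, 7 and 5 in shArl4c, a ratio of 0.360 over the group totals (95% interval 0.205 to 0.609, counting error alone). Rspo1 had 33 reads in shControl and 27 in shArl4c, and its groups overlapped.

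**Figure D3:**
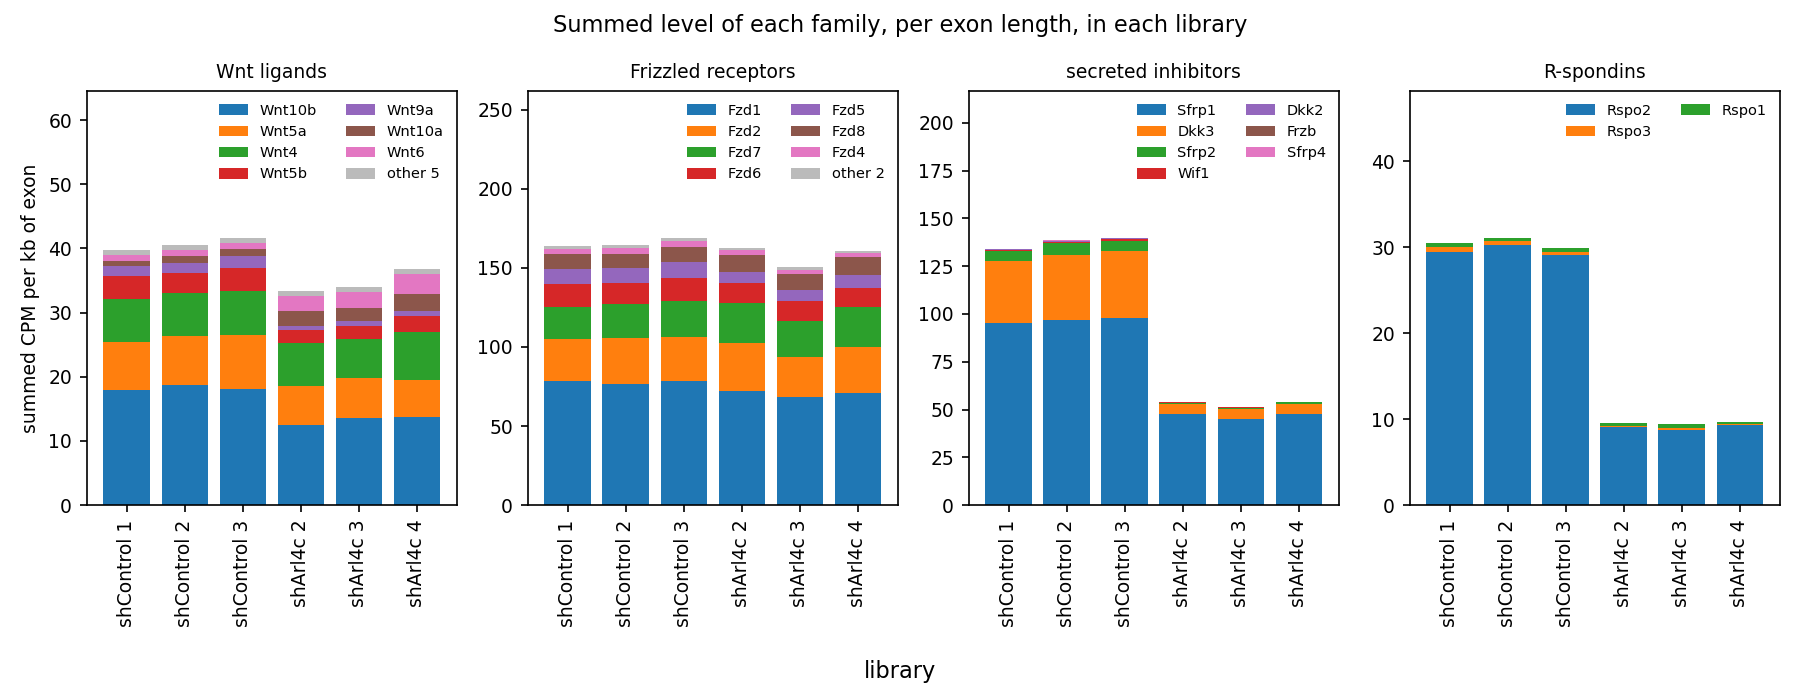
Summed level in CPM per kilobase of exon for Wnt ligands, Frizzled receptors, secreted inhibitors and R-spondins in each library, split by gene. The secreted inhibitor sum ran from 134 to 140 CPM per kb in shControl and from 51.4 to 54.1 in shArl4c, and the Frizzled sum from 164 to 169 and from 150 to 162.

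Of the 7 secreted inhibitors in the table, 4 were tested, and all 4, Sfrp1, Sfrp2, Wif1 and Dkk3, were lower in shArl4c, as were 18.0% of all tested genes. The call of Wif1 was lost in 7 of the 17 alternatives in which it was tested, edgeR and DESeq2 among them. The sum of the 7 was 137 ± 3.03 CPM per kb in shControl and 53.2 ± 1.56 CPM per kb in shArl4c, a ratio of 0.387. Dkk3 is counted here by family name, although it is not known to block the LRP co-receptors, and without it the ratio was 0.46. The ratio was 0.853 for the ligand sum and 0.952 for the Frizzled sum.

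Sfrp1, the most abundant inhibitor, stood at 417, 424 and 428 CPM in the shControl libraries and 208, 196 and 209 CPM in shArl4c, 2.07-fold lower (limma, log2 difference -1.05, SE 0.04, adjusted p = 1.84e-13). Its share of the inhibitor sum per kb was 70.4 ± 0.602% in shControl and 87.9 ± 0.626% in shArl4c, while that of Dkk3 was 24.5 ± 0.370% and 10.2 ± 0.517%. Sfrp2, a relative also known from heart repair, stood at 10.8, 12.8 and 12.1 CPM in the shControl libraries and 0.363, 0.899 and 1.45 CPM in shArl4c. The groups lay far apart, although the shArl4c values spread widely, and the mean was 13.1-fold lower (limma, log2 difference -2.80, SE 0.18, adjusted p = 2.12e-09). Sfrp2 shares 347 bases, 16.1% of its exons, with Gm26771, a gene on the opposite strand that also fell, from 1.85 to 0.172 CPM (limma, log2 difference -1.29, adjusted p = 1.34e-05). The sources used here do not say whether counting used strand, so reads of those genes cannot be told apart. Exons of Fzd5, Wnt5a and Fzd6 overlap opposite-strand genes by 17.8%, 4.58% and 3.15%.

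Wif1, an inhibitor that binds Wnts directly, was low. Its level was 1.62, 2.22 and 2.32 CPM in the shControl libraries and 1.60, 1.05 and 0.230 CPM in shArl4c, so the lowest shControl library and the highest shArl4c library nearly met. The 0.230 CPM of shArl4c 4 came from 3 reads. The call (limma, log2 difference -0.70, SE 0.24, adjusted p = 0.0301) was lost with edgeR (adjusted p = 0.0632), with DESeq2 (adjusted p = 0.0776), and without shControl 2, shControl 3 or shArl4c 4 (limma, adjusted p = 0.108, 0.119 and 0.146, range over all alternatives 0.00281 to 0.146). Without shArl4c 4 the log2 difference was -0.40. Frzb and Sfrp4, inhibitors of the SFRP family, were below the filter, with 18 and 7 reads over the shControl libraries and 11 and 8 over the shArl4c libraries, and their groups overlapped.

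Dkk3, the divergent member of the Dickkopf family, was lower in every shArl4c library. Its level was 109, 114 and 117 CPM in the shControl libraries and 18.1, 18.6 and 17.8 CPM in shArl4c, 6.24-fold lower (limma, log2 difference -2.58, SE 0.06, adjusted p = 3.26e-17). Dkk2, an LRP-binding Dickkopf known from ocular and bone development, was below the filter. It had 27, 20 and 17 reads in shControl and 3, 2 and 2 in shArl4c, near the limit of 3 reads that a count of 0 allows, and the totals of 64 and 7 reads gave a ratio of 0.110 (95% interval 0.0426 to 0.241, counting error alone). With no filter on low values Dkk2 and Rspo3 passed as well (limma, adjusted p = 9.70e-06 and 0.00315).

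The other genes of the pathway were read from lists chosen by name, also with earlier results of these data known. Of 110 genes in 4 lists, each gene counted once, 95 were tested: 14 were higher, 43 were lower and 38 did not pass (60.0% changed, against 36.9% of all tested genes). The lists' median log2 difference was -0.13.

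Release and surface cofactors act on Wnts and their receptors at the membrane. Of 17 tested, 11 were lower (18.0% of all tested genes), 1 was higher (18.9%) and 5 missed the threshold, and the median log2 difference was -0.30. The smallest p-values belonged to the glypicans Gpc4 (146 ± 3.14 against 39.4 ± 2.78 CPM) and Gpc6 (43.8 ± 1.65 against 15.6 ± 0.487 CPM), and to the secreted Wnt cofactor Cthrc1 (64.9 ± 2.15 against 15.8 ± 0.825 CPM). All 3 were lower in shArl4c, by 3.71-fold, 2.81-fold and 4.11-fold (limma, adjusted p = 1.67e-15, 2.58e-12 and 1.28e-14).

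The list of the beta-catenin branch holds its cytoplasmic and nuclear proteins. Of 41 tested genes, 6 were higher (18.9% of all tested genes), 13 were lower (18.0%) and 22 missed the threshold, and the median log2 difference was -0.05. With 46.3% changed against 36.9% of all tested genes, this list was near the background. Nkd2, an inhibitor of Dishevelled, fell from 59.5 ± 3.99 to 20.3 ± 0.804 CPM (limma, adjusted p = 8.45e-13). Pygo1, a nuclear partner of beta-catenin, fell from 9.27 ± 0.371 to 2.07 ± 0.646 CPM (limma, adjusted p = 2.55e-08). Dvl3, a Dishevelled protein, fell from 70.6 ± 3.49 to 47.5 ± 1.28 CPM (limma, adjusted p = 7.20e-08).

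In the list for the planar polarity and calcium branches, of 32 tested genes 6 were higher, a share close to the 18.9% of all tested genes, 15 were lower (18.0% of all tested genes) and 11 did not pass (median log2 difference -0.12). Ppp3ca, a catalytic subunit of calcineurin, rose from 133 ± 2.23 to 217 ± 6.30 CPM (limma, adjusted p = 9.46e-11). Daam1, a formin that binds Dishevelled, fell from 60.2 ± 0.875 to 36.1 ± 1.3 CPM, and Prickle2, a polarity protein, from 17.6 ± 0.927 to 9.69 ± 0.939 CPM (limma, adjusted p = 2.86e-09 and 1.29e-06).

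Target genes of beta-catenin, a list that includes Wif1, held 14 tested genes: 9 were lower (18.0% of all tested genes), 1 was higher (18.9%) and 4 missed the threshold, and the median log2 difference was -0.50. Axin2, Nkd2, Lef1 and Tcf7 are also in the beta-catenin branch list, and Notum, Rnf43, Znrf3, Lgr5 and Apcdd1 among the surface cofactors. These genes and Wif1 are counted in each place, so the target list is not separate from the others. Nkd2 again had the smallest p. Bambi, a pseudoreceptor of TGF-beta signalling, fell from 6.04 ± 0.225 to 1.17 ± 0.130 CPM (limma, adjusted p = 1.53e-08). Ccnd1, the cell-cycle gene cyclin D1, was the 1 target that rose, from 234 ± 10.5 to 333 ± 22.2 CPM (limma, adjusted p = 2.09e-07).

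**Figure D4:**
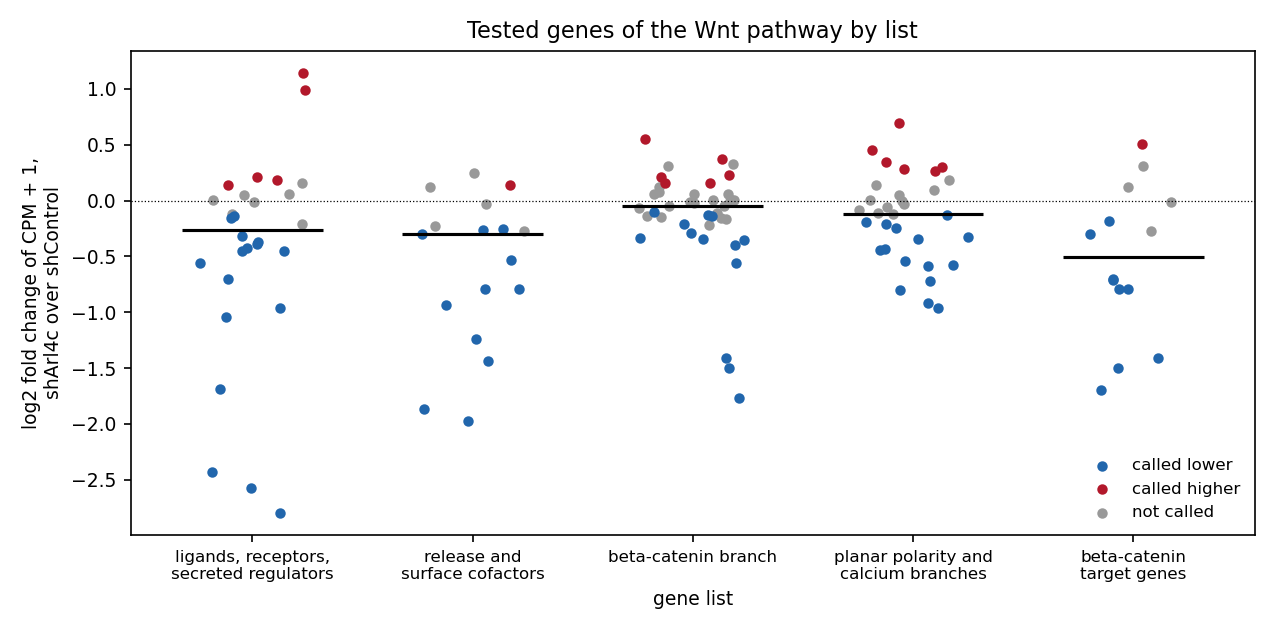
Log2 difference of shArl4c from shControl on the log2(CPM + 1) scale for each tested gene, 1 point a gene coloured by its call, in the set of 28 and in the 4 other pathway lists, with the median as a line. The medians run from -0.50 for the target genes to -0.05 for the beta-catenin branch, and horizontal spread within a list has no meaning. Genes shared between lists are shown in each.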

How the data were processed

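RNA was sequenced from 6 mDE6 samples, 3 shControl and 3 shArl4c, with a directional kit, per the labels' protocols. The authors deposited 1 table of CPM values. Trimmomatic 0.38, RSEM 1.3.0, Bowtie2, edgeR and build GRCm39 are named in the submitters' processing notes, and their order, settings and strand use are not given in the sources used here. Every value was a whole multiple of 1 read (100% of values within 0.001 of a read), so read counts were recovered from the deposited CPM.

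Columns were mapped to groups by name, those named shluc to shControl. Of 22032 gene identifiers, 21880 matched a symbol and 152 did not. Exon lengths and overlaps came from an annotation of a mouse build older than GRCm39, so no coordinates are given except those of the promoter windows. Promoters came from RefSeq, and their positions are on the older build GRCm38.p6.

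Genes averaging 1 CPM or more (14740; 7292 fell below) were fitted on log2(CPM + 1) with limma 3.58.1 (R 4.3.3) with intensity trend and robust moderation and adjusted by Benjamini-Hochberg over all tested genes, with a threshold of 0.05. Fold changes on this scale understate those of low genes. The steps were tested on simulated data. Recovered reads were also tested with edgeR 4.0.16, which called 2565 genes higher and 2738 lower, and DESeq2 1.42.0, which called 2000 and 2108. Named genes were every member in the table, Arl4c, and the 3 genes of each pathway list with the smallest p past the threshold. The members and lists were chosen with earlier results of these data known. The GC box and TATA searches and the scaling by library totals were chosen after seeing the data.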

Additional observations from a re-analysis of the deposited data

How the results depend on the processing

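Each result was recomputed under 18 alternatives. Of the 21 genes called changed, 16 kept the call and direction in every alternative in which they were tested, 5 (Fzd1, Fzd6, Fzd7, Lrp6 and Wif1) lost it in at least 1, and 0 reversed. Higher genes numbered 5, but 3 with a 5 CPM filter, under which fewer genes were tested, 3 with limma without trend and robust moderation, and 3 to 5 when each library was left out in turn (3 without shControl 1). Lower genes numbered 16, with 13 to 19 over all alternatives. More genes of the set were tested in some of these. The 19 without shArl4c 3 were of 30 tested, Dkk2 and Rspo3 among those added. Over all genes, 3137 of 14685 tested were lower in that setting, against 2655 of 14740. Lower genes were 18 of 38 with no filter, 18 of 30 without shArl4c 2 and 16 of 31 without shArl4c 4. With array weights, which added no genes, 17 were lower. The log2 difference of Fzd2, near 0 and not called, turned negative with median-of-ratios scaling (-0.0026), edgeR (-0.0084) and DESeq2 (-0.0034), and ran from -0.0493 to 0.0746 when each library was left out, negative without shControl 1 (-0.0353), shArl4c 2 or shArl4c 4 (-0.02). That of Wnt4, also not called, turned positive with array weights (0.0535) and with scaling by library totals (0.0147), and ran from -0.082 to 0.0468 when each library was left out, positive without shControl 3 (0.0011) or shArl4c 3. The cause was not tested. Over all genes, 2790 were higher and 2655 lower, against 3419 and 2341 with scaling by library totals. No paired analysis was possible because the column numbers of the shArl4c libraries, 2 to 4, do not match the replicate numbers of the labels, so no replicate block could be fitted. Depth limits the genes below 1 CPM, where a count of 0 allows up to 0.202 to 0.248 CPM per library.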

Other observations

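Some Wnt genes lie next to each other, as neighbours in the RefSeq gene order. Wnt6 and Wnt10a, which both rose in shArl4c, are such a pair. Of the 5 genes on each side of them, 4 were tested and none was called, against 36.9% of all tested genes. The log2 differences by limma were -0.05 for Rnf25, -0.11 for Stk36, 0.07 for Ttll4 and 0.28 for Prkag3. Cyp27a1 and Cdk5r2 were below the filter, and Fev, Cryba2, Cfap65 and Ihh were not in the table. Wnt10b, which fell, is a neighbour of Wnt1, which had 7 reads in shControl and 6 in shArl4c. Around that pair, Rnd1 was lower, while Arf3, Prkag1 and Rhebl1 were higher, with log2 differences of -0.34, 0.27, 0.14 and 0.51, and Ccdc65, Fkbp11 and Kmt2d were not called. Wnt9a, which fell, is a neighbour of Wnt3a, and none of its tested neighbours (Guk1, Mrpl55, 2310033P09Rik, Arf1, Snap47, Jmjd4, Zfp867 and Zkscan17) was called by limma. Their log2 differences ran from -0.07 (Zkscan17) to 0.17 (Guk1). Wnt3 and Wnt9b are also neighbours, and neither was in the table. Around them Gosr2 was lower, Nsf and Crhr1 were higher and Arf2 was not called, with log2 differences of -0.18, 0.29, 1.07 and -0.14.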
